A study of Rattus norvegicus with 18 samples.

Results

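The genes described here are 71 rat genes of membrane traffic, among them the SNARE gene Snap25 of synaptic vesicle fusion. They were chosen by the start of their symbol (such as Rab, Arf, Vps, Snx, Stx, Vamp, Tbc1d, Trappc) from a list of symbols that the authors supplied for genes with at least 200 intronic reads and no overlapping neighbour. The copy of that list used here was cut short after 1994 symbols, so that further genes with these prefixes may lie beyond the cut. Of the 1994 symbols 71 matched, and all 71 had reads in at least 3 of the 6 libraries. The whole table at the greatest depth held 26172 genes, of which 17930 had reads in at least 3 libraries and were tested. The prefix rule itself did not use any measured change, but the members were chosen with earlier results of these data known. Synapsins, Syt1, Vamp2, Stx1a and other genes of the synaptic vesicle cycle that were not on the copied list were not analysed here. The prefix also picked up Cops2, Cops3 and Cops7a, which belong to the COP9 signalosome and not to membrane traffic.

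RNA was measured in the L5 dorsal root ganglion (DRG), the cluster of sensory neurons, satellite glia, Schwann cells and other cells that serves the fifth lumbar spinal nerve. Male Wistar rats had an L5 spinal nerve transection (SNT), which cuts the axons of these neurons, and gave their ganglia 7 days later, while naive rats had no operation. Ganglia of 4 rats were pooled for each library, with 3 SNT and 3 naive libraries, so that a replicate is a separate pool of animals and not 1 rat. Each library was sequenced in 3 runs, named 17 M, 25 M and 50 M for their nominal depth in units of 1e6 reads, of which the 50 M run was the main data set and gave 15000789 to 17480115 counted reads in SNT and 18588873 to 19031166 in naive libraries.

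Membrane traffic moves proteins and lipids between compartments in vesicles. Arf GTPases recruit coats that bud a vesicle, Rab GTPases mark its identity, tethering complexes hold it at the target membrane, and SNARE proteins on both membranes zip together and fuse them. In sensory neurons these steps supply the long axon and the terminals in skin and spinal cord, and Snap25 is a neuronal SNARE of transmitter release that is cleaved by botulinum toxin type A.

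At 50 M reads, 47 of the 71 genes (66.2%) passed the test between SNT and naive libraries, 19 of them higher and 28 lower in SNT, where 58.5% of all tested genes passed (29.2% higher and 29.4% lower). The test was limma on log2(normalized count + 1), two-sided, adjusted over all tested genes, with a false discovery rate of 0.1, and a normalized count is the number of reads of a gene divided by the size factor of its library. Among the 1994 genes with a symbol, 71.4% passed (35.2% higher, 36.2% lower), so the share of members called lay between these backgrounds and does not set the genes apart. The counts by role or list below cover few genes each and are to be read beside these shares. For 54 of the 71 genes the range of the SNT libraries was apart from that of the naive libraries, against 62.1% of all tested genes and 75.8% of genes with a symbol. Most changes were small. The median absolute log2 fold change was 0.30 for the 71 genes, 0.41 for the genes with a symbol and 0.49 for all tested genes. A called gene with an SNT mean below 0.5 times the naive mean occurred 2 times among the 71 (Snap25 and Rab3ip), where 9.87% of all tested genes met this rule, and a called gene above 2 times occurred 1 time (Rab15), where 12.0% did.

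The direction of the small changes rested on the scaling. With every library set to the same total in place of DESeq size factors (here called equal totals), the median log2 fold change of all tested genes shifted by 0.15, and the 71 genes split into 28 higher and 19 lower, with 9 calls lost and 9 gained. All fold changes below are on the size factor scale, and a call that ends under equal totals is named as such.

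**Figure D1:**
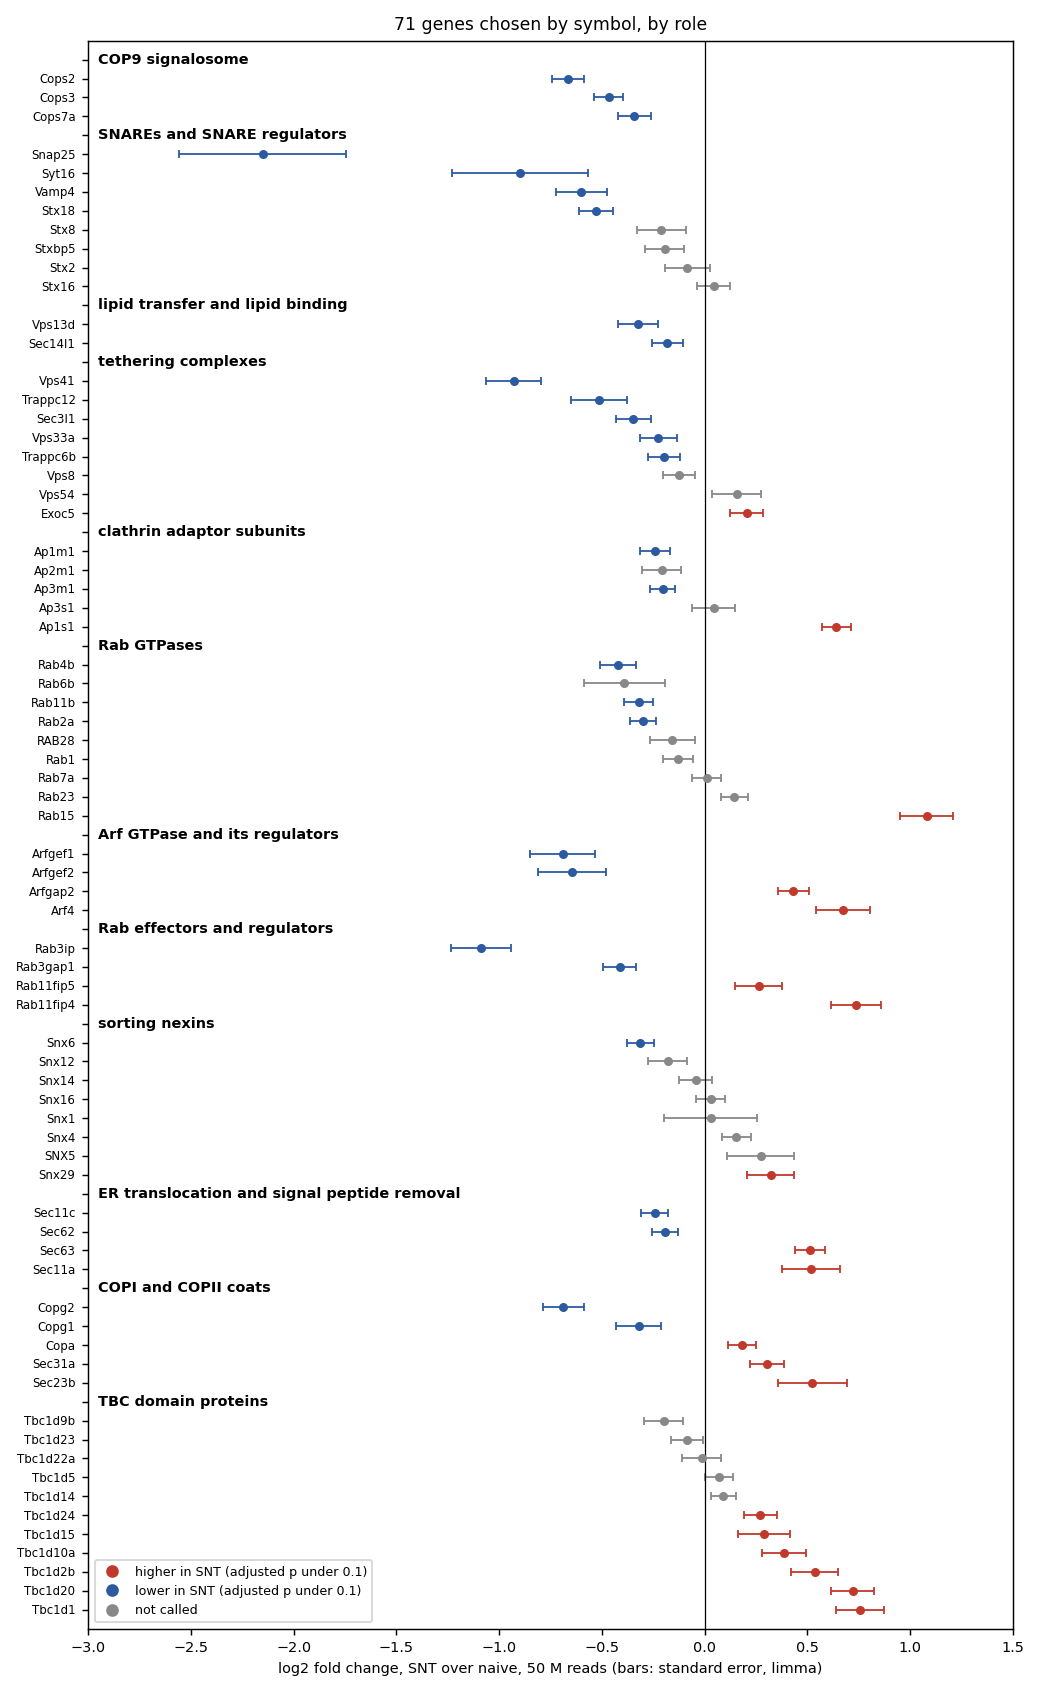
Each point is the log2 fold change of 1 of the 71 genes (SNT over naive, 50 M run, 3 libraries per group), with its standard error from limma as a bar, grouped by role and coloured by the call. Snap25 stands at -2.15 and Rab15 at 1.08, with all other genes from -1.09 to 0.76.

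Promoter sequences are shown for the 2 fallers and the 2 risers with the largest change that had an entry in the RefSeq promoter table (build GRCr8, while the reads were aligned to Rn5). Each is the stretch of 250 bases before the listed start, 5′ to 3′ on the strand of the gene, and capitals mark any of 6 searched motifs. Rab3ip lies at chr7:54447001-54447250, Vps41 at chr17:50923130-50923379, Rab15 at chr6:101257084-101257333 and Tbc1d1 at chr14:44488168-44488417, all on the minus strand.
Rab3ip: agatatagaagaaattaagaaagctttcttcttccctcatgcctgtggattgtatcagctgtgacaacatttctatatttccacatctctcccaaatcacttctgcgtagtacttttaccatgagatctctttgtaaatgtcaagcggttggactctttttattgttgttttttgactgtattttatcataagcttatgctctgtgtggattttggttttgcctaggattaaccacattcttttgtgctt
Vps41: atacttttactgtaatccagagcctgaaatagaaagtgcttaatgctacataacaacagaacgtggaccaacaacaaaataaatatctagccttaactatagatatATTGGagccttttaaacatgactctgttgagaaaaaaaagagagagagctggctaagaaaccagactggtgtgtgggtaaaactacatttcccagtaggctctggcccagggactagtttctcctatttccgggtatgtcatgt
Rab15: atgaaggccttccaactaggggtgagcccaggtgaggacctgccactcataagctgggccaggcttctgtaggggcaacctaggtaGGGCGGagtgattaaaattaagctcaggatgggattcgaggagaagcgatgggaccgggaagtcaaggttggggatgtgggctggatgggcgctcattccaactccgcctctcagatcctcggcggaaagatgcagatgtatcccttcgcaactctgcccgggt
Tbc1d1: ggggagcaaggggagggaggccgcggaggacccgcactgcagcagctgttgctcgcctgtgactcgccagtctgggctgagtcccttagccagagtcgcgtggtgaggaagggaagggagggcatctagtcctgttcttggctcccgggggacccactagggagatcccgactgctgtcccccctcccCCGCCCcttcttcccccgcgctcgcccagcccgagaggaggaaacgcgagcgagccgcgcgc
The 6 motifs were the GC box (GGGCGG), the CCAAT box (CCAAT), the TATA box (TATAAA), the E-box (CACGTG), the AP-1 site (TGANTCA) and the CRE (TGACGTCA), searched on both strands, and none of these strings contains another. The windows of the risers Rab15 and Tbc1d1 each held 1 GC box, that of the faller Vps41 held 1 CCAAT box, and that of the faller Rab3ip held none of the 6. Of the 71 genes, 62 had an entry, 1 of them by a synonym (Sec3l1, now Exoc1). A GC box stood in 42 of the 62 windows (67.7%), against 32.4% of all 27457 windows in the table and 40.3% of those of protein-coding genes. By call, it stood in 15 of 17 windows of risers (88.2%), 14 of 24 of fallers (58.3%) and 13 of 21 of genes not called (61.9%). The members' windows had a median GC content of 61.6% against 52% for all windows. An E-box stood in 7 of 62 windows (11.3%; 5.79% of all), an AP-1 site in 2 (3.23%; 6.36% of all), a TATA box in 1 (1.61%; 13.1% of all), a CRE in 1 (1.61%; 1.7% of all) and a CCAAT box in 18 (29%; 34.3% of all). These are counts of letters in a fixed window and carry no test.

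Of the 8 SNAREs and SNARE regulators, 4 were lower in SNT, none was higher and 4 were not called. That is 50% called, against 58.5% of all tested genes (29.4% lower). Snap25 (ENSRNOG00000006037), which sits on the plasma membrane and drives synaptic vesicle fusion, had 43779, 44128 and 41369 normalized counts in naive replicates 1, 2 and 3, and 19597, 6076 and 7666 in SNT replicates 1, 2 and 3. Every SNT library lay below every naive library, and SNT replicate 1 stood between the naive libraries and the other SNT libraries. The SNT mean was 0.258 times the naive mean. The limma log2 fold change, a difference of mean logs and not the log of that ratio, was -2.15 ± 0.41 (SE, limma adjusted p = 0.00692). DESeq2 gave a log2 fold change of -1.96. Without SNT replicate 1 the ratio was 0.159. In pooled tissue, fewer neurons and less Snap25 RNA per neuron cannot be told apart. Of 10 sensory neuron markers, 7 were lower and 1 (Nsg1) was higher. Stmn2 (ratio 1.13) and Prph (ratio 0.829) were not called, and their groups overlapped. The summed counts of the 10 markers were 356456 to 411540 in naive and 150344 to 265662 in SNT libraries, with SNT replicate 1 the highest SNT library. Nefh made up a large part of the naive sums, with 186814 to 215828 in naive and 32294 to 95133 in SNT libraries. No marker was at 0, and the part of the 10 markers in the Snap25 result was not tested.

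**Figure D2:**
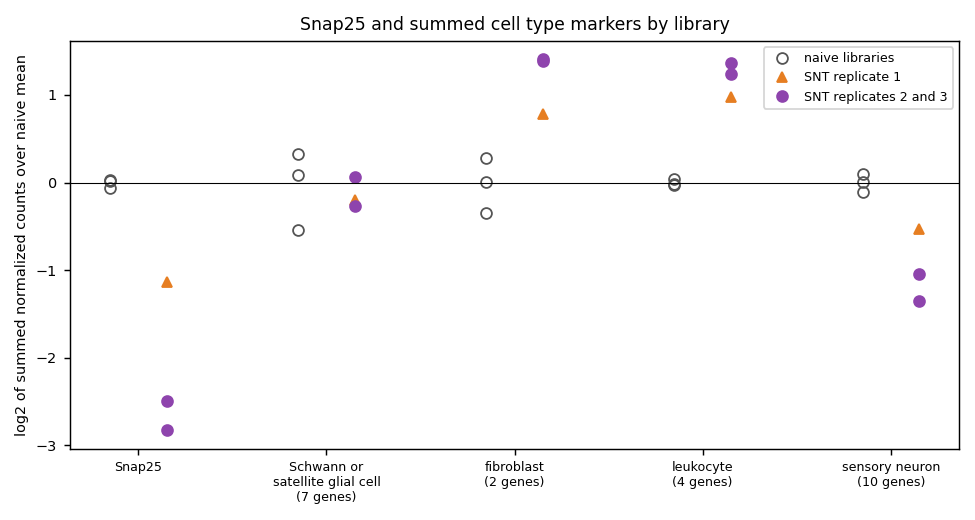
Snap25 and the summed normalized counts of 4 lists of cell type markers are shown per library (50 M run) as log2 of the value over the naive mean. SNT replicate 1 (triangle) lies nearer to the naive libraries than SNT replicates 2 and 3 for Snap25, the 2 fibroblast, the 4 leukocyte and the 10 neuron markers, and the glial sums of the groups overlap. Nefh makes up a large part of the naive neuron sums, and Lcp1 most of the leukocyte sums.

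Vamp4, a SNARE of the trans-Golgi network and endosomes, had naive counts of 2493, 2523 and 2425 and SNT counts of 1952, 1398 and 1605. The groups did not overlap, and the fall was to 0.666 times (log2 -0.60 ± 0.12, limma adjusted p = 0.00851). Stx18, an endoplasmic reticulum (ER) syntaxin that receives vesicles returning from the Golgi, went from 774, 731 and 716 in naive to 546, 512 and 482 in SNT libraries. It fell to 0.693 times (log2 -0.53 ± 0.08, limma adjusted p = 0.00421), with little spread within either group.

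Syt16, an atypical synaptotagmin, had the fewest reads of the 71 genes, with 50.5, 49.2 and 53.7 normalized counts in naive and 45.1, 21.7 and 19.8 in SNT libraries. SNT replicate 1 came close to the naive libraries. Its ratio was 0.565 (log2 -0.90 ± 0.33, limma adjusted p = 0.0588), and the call was lost when any library other than SNT replicate 1 was left out (adjusted p 0.125 to 0.173 by limma). The log2 fold change without SNT replicate 3 was -0.69.

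The other 4 genes of this role were not called. Stxbp5 (tomosyn), which binds syntaxin and SNAP-25 and holds back fusion, had 1330, 1392 and 1277 normalized counts in naive and 1315, 1096 and 1094 in SNT libraries. SNT replicate 1 lay within the naive range, the ratio was 0.876 (limma adjusted p = 0.127), and without that library the log2 fold change was -0.28 (limma adjusted p = 0.0103). Stx8, a late endosomal syntaxin, had 227, 188 and 204 in naive and 186, 167 and 179 in SNT libraries, with a 95% interval of the log2 fold change from -0.49 to 0.070. Stx2, a syntaxin of the plasma membrane, had 509, 504 and 483 in naive and 506, 404 and 509 in SNT libraries, and these groups overlapped. Stx16, a syntaxin of the trans-Golgi network, had 1195, 1188 and 1218 in naive and 1295, 1124 and 1300 in SNT libraries, with an interval from -0.15 to 0.23. With equal totals Stx16 was called higher (log2 0.21, limma adjusted p = 0.0607), while Stx2 moved from -0.084 to 0.078 and was still not called.

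**Figure D3:**
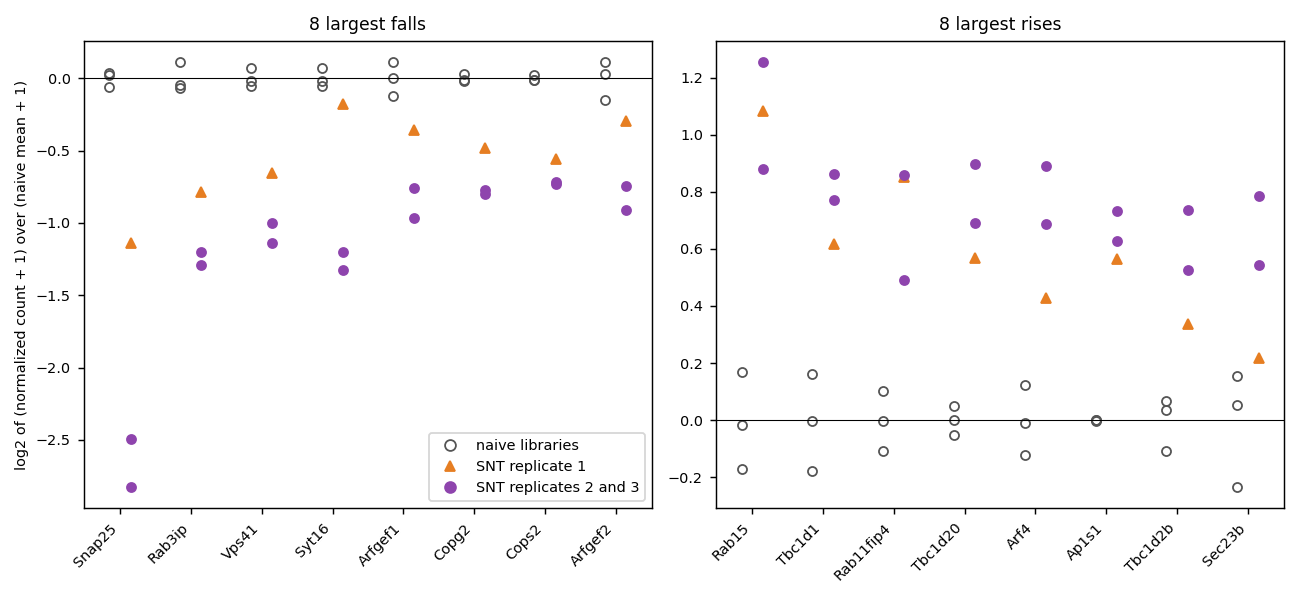
For the 8 genes with the largest fall (left) and the 8 with the largest rise (right) among called genes, each library of the 50 M run is plotted as log2 of (normalized count + 1) over the naive mean. SNT replicate 1 (triangle) is the SNT library nearest to the naive libraries for all 8 fallers and for 6 of the 8 risers, the exceptions being Rab15 and Rab11fip4.

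Of the 9 Rab GTPases, 1 was higher, 3 were lower and 5 were not called (44.4% called, against 58.5% of all tested genes). Rab15 (ENSRNOG00000007364), a Rab of early and recycling endosomes that is abundant in neural tissue, had naive counts of 2795, 3185 and 2516 and SNT counts of 6010, 5219 and 6764. The lowest SNT library stood well above the highest naive library. The ratio was 2.12 (log2 1.08 ± 0.13, limma adjusted p = 0.00262), the largest rise among the 71 genes, and it was also 2.12 without SNT replicate 1.

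The 3 Rabs that fell changed less. Rab4b, a Rab of early endosomes, had 1249, 1458 and 1308 normalized counts in naive and 1036, 930 and 1031 in SNT libraries (ratio 0.746, log2 -0.42 ± 0.09, limma adjusted p = 0.00889). Rab11b, which works at recycling endosomes, had 3956, 3993 and 3681 in naive and 3220, 3057 and 3029 in SNT libraries (ratio 0.800, log2 -0.32 ± 0.07, limma adjusted p = 0.0107). Rab2a, a Rab of ER to Golgi traffic, had 2631, 2723 and 2653 in naive and 2221, 2127 and 2154 in SNT libraries (ratio 0.812, log2 -0.30 ± 0.06, limma adjusted p = 0.00879). Each of these 3 genes had groups that were apart, and the calls held with equal totals.

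Rab6b, the Rab6 isoform best known from neurons, had 28809, 31186 and 26348 normalized counts in naive and 27709, 16841 and 22475 in SNT libraries. SNT replicate 1 lay inside the naive range while the others lay below it, and the ratio of 0.776 was not called (limma adjusted p = 0.141). Without that library the log2 fold change was -0.56 (limma adjusted p = 0.0152). Rab7a, the Rab of late endosomes and lysosomes, had 3896, 4153 and 3754 in naive and 3916, 3933 and 4028 in SNT libraries. Its groups overlapped, and the 95% interval of its log2 fold change ran from -0.16 to 0.18, although with equal totals it was called higher (log2 0.17, limma adjusted p = 0.0747). Rab1, RAB28 and Rab23 had ratios of 0.913, 0.896 and 1.11 and were not called, and Rab23 was called higher with equal totals (log2 0.31, limma adjusted p = 0.00877). The median log2 fold change of the 9 Rabs was -0.16, and 0.0045 with equal totals.

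All 4 Rab effectors and regulators were called, 2 in each direction, where 58.5% of all tested genes were called. Rab3ip (Rabin8, ENSRNOG00000005362), which loads Rab8 with GTP, had 706, 788 and 696 normalized counts in naive and 424, 317 and 298 in SNT libraries. All SNT libraries were far below the naive libraries, and SNT replicate 1 was again the nearest to them. It fell to 0.475 times (log2 -1.09 ± 0.14, limma adjusted p = 0.00335) and to 0.422 times without that library. Rab3gap1, the catalytic subunit of the complex that switches Rab3 off, went from 2094, 2146 and 2076 to 1734, 1495 and 1522 (ratio 0.752, log2 -0.41 ± 0.08, limma adjusted p = 0.00706).

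Both Rab11 effectors of the FIP family were called higher. Rab11fip4 had 1651, 1774 and 1534 normalized counts in naive and 2984, 2323 and 2998 in SNT libraries, with SNT replicate 2 the lowest of its group. It rose to 1.68 times (log2 0.74 ± 0.12, limma adjusted p = 0.00482). Rab11fip5 had 2333, 2617 and 2117 in naive and 3028, 2482 and 2978 in SNT libraries, and these groups overlapped. Its call (ratio 1.2, limma adjusted p = 0.0958) was lost in 8 of 16 alternatives, including those without SNT replicate 1 (log2 0.21, limma adjusted p = 0.159), SNT replicate 3, naive replicate 1 or naive replicate 3, where adjusted p reached 0.263 in limma.

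TBC domain proteins, most of which switch Rabs off by speeding GTP hydrolysis, were called higher in 6 of 11 cases and lower in none, and 5 were not called. The share called was 54.5%, against 58.5% of all tested genes (29.2% higher). Tbc1d1 (ENSRNOG00000002180), known from glucose transporter traffic in muscle, had 320, 405 and 360 normalized counts in naive and 555, 659 and 618 in SNT libraries. It rose to 1.69 times (log2 0.76 ± 0.12, limma adjusted p = 0.00426). Tbc1d20, which acts on Rab1, went from 354, 330 and 342 to 507, 639 and 553, or 1.66 times (log2 0.72 ± 0.11, limma adjusted p = 0.00398). Tbc1d2b had 882, 797 and 902 in naive and 1087, 1433 and 1238 in SNT libraries (ratio 1.46, log2 0.53 ± 0.11, limma adjusted p = 0.00971). In all 3 genes every SNT library was above every naive library, and SNT replicate 1 was the lowest SNT library.

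The other called TBC genes were Tbc1d10a (ratio 1.31, limma adjusted p = 0.024), Tbc1d24 (1.21, adjusted p = 0.0268 by limma) and Tbc1d15 (1.22, adjusted p = 0.0963 by limma). Tbc1d24 lacks a key catalytic residue of the family and is known from epilepsy. The call of Tbc1d15, which acts on Rab7, was lost in 10 of 16 alternatives, among them each of the 5 that left out a naive library or SNT replicate 2 or 3 (limma adjusted p 0.125 to 0.269). Tbc1d14, a regulator of autophagy, had 1617, 1591 and 1555 normalized counts in naive and 1670, 1703 and 1697 in SNT libraries. These groups did not overlap, yet the ratio was 1.06, with a 95% interval of the log2 fold change from -0.054 to 0.23. Tbc1d5, Tbc1d23, Tbc1d22a and Tbc1d9b had ratios of 1.05, 0.942, 0.993 and 0.872. Tbc1d9b was called lower without SNT replicate 1 (log2 -0.26, limma adjusted p = 0.0342), and with equal totals Tbc1d14 and Tbc1d5 were called higher, giving 8 of 11. Alongside these genes, the 4 leukocyte markers (Ptprc, Lcp1, Inpp5d, Cyth4) were all higher in SNT. Their summed counts were 6384 to 6699 in naive and 12778 to 16718 in SNT libraries. Lcp1 made up most of these sums, with 5349 to 5959 in naive and 11052 to 12921 in SNT libraries. The 2 fibroblast markers (Col1a1, Dcn) were both higher, with 27649 to 42614 against 60550 to 93242. Of 7 Schwann and satellite cell markers 3 were higher and 1 was lower, and their sums overlapped (289800 to 529015 in naive, 351069 to 440852 in SNT libraries). No marker was at 0 in any library, and the part of these cells in the TBC result was not tested.

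Of 8 subunits of tethering complexes, 5 were lower, 1 was higher and 2 were not called. Thus 75% were called, against 58.5% of all tested genes and 71.4% of genes with a symbol. Vps41 (ENSRNOG00000012940), a subunit of the HOPS complex that tethers membranes to lysosomes, had 7540, 7994 and 7328 normalized counts in naive and 4850, 3458 and 3810 in SNT libraries. There was a wide gap between the groups, with SNT replicate 1 nearest to the naive libraries. It fell to 0.530 times (log2 -0.93 ± 0.13, limma adjusted p = 0.00384) and to 0.477 times without that library. The 2 subunits of related complexes changed less, with ratios of 0.854 for Vps33a, shared by HOPS and its early endosomal sister complex CORVET (limma adjusted p = 0.073), and 0.920 for Vps8 of CORVET (limma adjusted p = 0.231).

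Trappc12 and Trappc6b, subunits of the TRAPP complexes of the ER to Golgi route, had ratios of 0.700 (log2 -0.51 ± 0.14, limma adjusted p = 0.02) and 0.874 (log2 -0.20 ± 0.08, limma adjusted p = 0.0742). The exocyst, which tethers secretory vesicles to the plasma membrane, was represented by Sec3l1 and Exoc5. Sec3l1 went from 1305, 1389 and 1322 normalized counts in naive to 1122, 949 and 1092 in SNT libraries (ratio 0.788, limma adjusted p = 0.0153). Exoc5 moved the other way, from 1468, 1509 and 1468 to 1824, 1555 and 1757 (ratio 1.16, limma adjusted p = 0.0704), and SNT replicate 2 was close to the naive libraries. Vps54, of the GARP complex at the trans-Golgi network, had a ratio of 1.12 and was not called. Of the 6 calls, those of Vps33a, Trappc6b and Exoc5 were lost when certain single libraries were left out, with limma adjusted p of 0.166 to 0.213, 0.118 to 0.226 and 0.111 to 0.191. For Vps33a these libraries were naive replicates 1 and 2 and SNT replicates 2 and 3, for Trappc6b all but SNT replicate 1, and for Exoc5 all but SNT replicate 2. Vps8 was called lower without SNT replicate 1 (log2 -0.18, limma adjusted p = 0.0619), and with equal totals Vps33a (log2 -0.064) and Trappc6b (log2 -0.034) lost their calls while Vps54 (log2 0.32, limma adjusted p = 0.0784) was called higher.

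The 4 genes of the Arf switch were all called, where 58.5% of all tested genes were, and split by function. Arf4, an Arf GTPase of the Golgi and endosomes, had 2607, 2416 and 2864 normalized counts in naive and 3540, 4875 and 4234 in SNT libraries. It rose to 1.60 times (log2 0.67 ± 0.13, limma adjusted p = 0.00737). Arfgap2, which turns Arf off on COPI vesicles, went from 1233, 1277 and 1376 to 1650, 1836 and 1757 (ratio 1.35, log2 0.43 ± 0.08, limma adjusted p = 0.00605). The groups of both genes were apart.

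The exchange factors that load Arf with GTP at the trans-Golgi network fell. Arfgef1 (BIG1) had 4044, 4374 and 3717 normalized counts in naive and 3159, 2068 and 2388 in SNT libraries (ratio 0.628, log2 -0.69 ± 0.16, limma adjusted p = 0.0121). Arfgef2 (BIG2) had 2424, 2565 and 2140 in naive and 1941, 1263 and 1416 in SNT libraries (ratio 0.648, log2 -0.65 ± 0.16, limma adjusted p = 0.0172). In both, SNT replicate 1 was the highest SNT library and lay below the naive range, and without it the ratios were 0.551 and 0.564. The log2 ratio of Arfgef1 to Arfgef2 was 0.77 ± 0.03 (SD, n = 3) in naive and 0.72 ± 0.03 (SD, n = 3) in SNT libraries, a difference of -0.046 (exact permutation test, p = 0.2, two-sided, adjusted p = 0.25 over 5 pairs of related genes).

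All 5 coat subunits were called, with 3 higher and 2 lower, where 58.5% of all tested genes were called. The COPI coat carries cargo back from the Golgi to the ER. Its gamma subunit has alternative forms, Copg1 and Copg2, and both were lower. Copg2 had 4708, 4866 and 4715 normalized counts in naive and 3405, 2731 and 2783 in SNT libraries (ratio 0.624, log2 -0.69 ± 0.10, limma adjusted p = 0.00398). Copg1 went from 6271, 6654 and 5950 to 5700, 4478 and 4986 (ratio 0.803, log2 -0.32 ± 0.11, limma adjusted p = 0.0441). The log2 ratio of Copg1 to Copg2 was 0.40 ± 0.06 (SD, n = 3) in naive and 0.77 ± 0.07 (SD, n = 3) in SNT libraries, without overlap, and the difference of 0.37 had the smallest p that 3 against 3 libraries allow (exact permutation test, p = 0.1, adjusted p = 0.167). The alpha subunit Copa moved the other way, from 4238, 4118 and 3990 to 4528, 4700 and 4768 (ratio 1.13, limma adjusted p = 0.0648). The call of Copg1 was lost with equal totals (log2 -0.16, limma adjusted p = 0.209) and without naive replicate 1 or 2 or SNT replicate 2 or 3 (limma adjusted p 0.102 to 0.136), and that of Copa was lost without any library but SNT replicate 1 (limma adjusted p 0.106 to 0.187).

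Sec31a and Sec23b belong to COPII, the coat that leaves the ER. Sec31a had 1852, 1738 and 1783 normalized counts in naive and 2011, 2308 and 2328 in SNT libraries (ratio 1.24, log2 0.30 ± 0.08, limma adjusted p = 0.0204). Sec23b had 555, 454 and 595 in naive and 622, 922 and 780 in SNT libraries (ratio 1.45, log2 0.52 ± 0.17, limma adjusted p = 0.0373). For both genes SNT replicate 1 was the lowest SNT library, and for Sec23b it came close to the highest naive library. The Sec23b call was lost without naive replicate 2 (limma adjusted p = 0.118) or SNT replicate 3 (limma adjusted p = 0.106).

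Adaptor complexes link cargo to clathrin. Of 5 subunits 1 was higher, 2 were lower and 2 were not called (60% called, against 58.5% of all tested genes). Ap1s1 (ENSRNOG00000001415), the small subunit of AP-1 at the trans-Golgi network, had 2151, 2157 and 2158 normalized counts in naive and 3189, 3331 and 3580 in SNT libraries. The naive libraries were almost equal, and all SNT libraries were higher. It rose to 1.56 times (log2 0.64 ± 0.07, limma adjusted p = 0.00224). Ap1m1, the medium subunit of the same complex, went down from 1760, 1813 and 1693 to 1579, 1455 and 1423 (ratio 0.846, log2 -0.24 ± 0.07, limma adjusted p = 0.0295). Ap2m1, the medium subunit of AP-2 in endocytosis, had 12138, 12680 and 11654 in naive and 11332, 9821 and 10462 in SNT libraries (ratio 0.867, limma adjusted p = 0.111), and it was called lower without SNT replicate 1 (log2 -0.26, limma adjusted p = 0.028). The log2 ratio of Ap1m1 to Ap2m1 differed by -0.033 between the groups (exact permutation test, p = 0.4, adjusted p = 0.4). For AP-3, Ap3m1 was lower (ratio 0.868, limma adjusted p = 0.0307) and Ap3s1 had a ratio of 1.03 with a 95% interval of the log2 fold change from -0.20 to 0.29. The calls of Ap1m1 and Ap3m1 were lost with equal totals (log2 -0.079 and -0.043) and without SNT replicate 3 (Ap1m1, limma adjusted p = 0.107) or naive replicate 1 (Ap3m1, limma adjusted p = 0.111).

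Sorting nexins bind endosomal membranes and sort cargo there, and 6 of 8 were not called. The share called was 25%, against 58.5% of all tested genes. Snx6 was lower, from 3111, 2964 and 3004 normalized counts to 2504, 2441 and 2367 (ratio 0.805, log2 -0.31 ± 0.06, limma adjusted p = 0.00877). Snx29 was higher, from 341, 299 and 271 to 369, 408 and 360 (ratio 1.25, limma adjusted p = 0.054), a call lost without naive replicate 2 or 3 or SNT replicate 2 (limma adjusted p 0.132 to 0.157). SNX5, which can take the place of Snx6 beside Snx1 in the complex that returns cargo to the Golgi, had 961, 768 and 955 in naive and 893, 1327 and 1051 in SNT libraries. SNT replicate 1 lay within the naive range of SNX5, and the ratio of 1.22 was not called (limma adjusted p = 0.203). Without that library the log2 fold change was 0.41 (limma adjusted p = 0.0398). The log2 ratio of SNX5 to Snx6 was -1.76 ± 0.16 (SD, n = 3) in naive and -1.18 ± 0.30 (SD, n = 3) in SNT libraries, and the groups did not overlap. The difference of 0.59 gave the smallest p possible (exact permutation test, p = 0.1, adjusted p = 0.167).

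Snx1 had few reads, 86.1, 135 and 131 in naive and 108, 143 and 105 in SNT libraries, and its 95% interval ran from -0.51 to 0.57 on the log2 scale. Snx16, with 1261, 1319 and 1244 in naive and 1259, 1378 and 1266 in SNT libraries, had an interval from -0.14 to 0.20. Ratios of Snx4, Snx12 and Snx14 were 1.11, 0.883 and 0.969. With equal totals Snx4 (log2 0.32), SNX5 (0.44) and Snx16 (0.19) were called higher, so that 4 sorting nexins were higher and 1 was lower. The lipid transfer protein Vps13d (ratio 0.800, limma adjusted p = 0.0296) and the Sec14-like protein Sec14l1 (ratio 0.883, limma adjusted p = 0.0855) were lower, and both calls were lost with equal totals (log2 -0.16 and -0.019). Leaving out naive replicate 1 also ended the Vps13d call (limma adjusted p = 0.102), and leaving out any library but SNT replicate 2 ended that of Sec14l1 (limma adjusted p 0.112 to 0.237).

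New secretory proteins enter the ER through a channel assisted by Sec62 and Sec63, and signal peptidase, whose catalytic subunit is Sec11a or Sec11c, then trims them. Within each pair 1 gene was higher and the other lower, so that all 4 were called, where 58.5% of all tested genes were. Sec63 had 2861, 2817 and 3006 normalized counts in naive and 3926, 4157 and 4311 in SNT libraries, a rise to 1.43 times (log2 0.51 ± 0.07, limma adjusted p = 0.00372). Sec62 went from 2723, 2696 and 2564 to 2305, 2294 and 2385 (ratio 0.875, log2 -0.19 ± 0.06, limma adjusted p = 0.0438). For each gene the groups were apart, by a wide margin for Sec63.

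Sec11a had 805, 775 and 916 normalized counts in naive and 990, 1417 and 1200 in SNT libraries (ratio 1.44, log2 0.52 ± 0.14, limma adjusted p = 0.0215). Sec11c had 943, 902 and 921 in naive and 753, 789 and 797 in SNT libraries (ratio 0.845, log2 -0.24 ± 0.07, limma adjusted p = 0.0219). The log2 ratio of Sec11a to Sec11c went from -0.15 ± 0.12 (SD, n = 3) to 0.61 ± 0.23 (SD, n = 3), the largest difference of the 5 pairs at 0.76, without overlap (exact permutation test, p = 0.1, adjusted p = 0.167). With equal totals Sec62 (log2 -0.031) and Sec11c (log2 -0.080) were no longer called, and Sec62 also lost its call without naive replicate 1 (limma adjusted p = 0.158) or 2 (limma adjusted p = 0.123). The ratio within a pair is not touched by the scaling of the libraries.

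**Figure D4:**
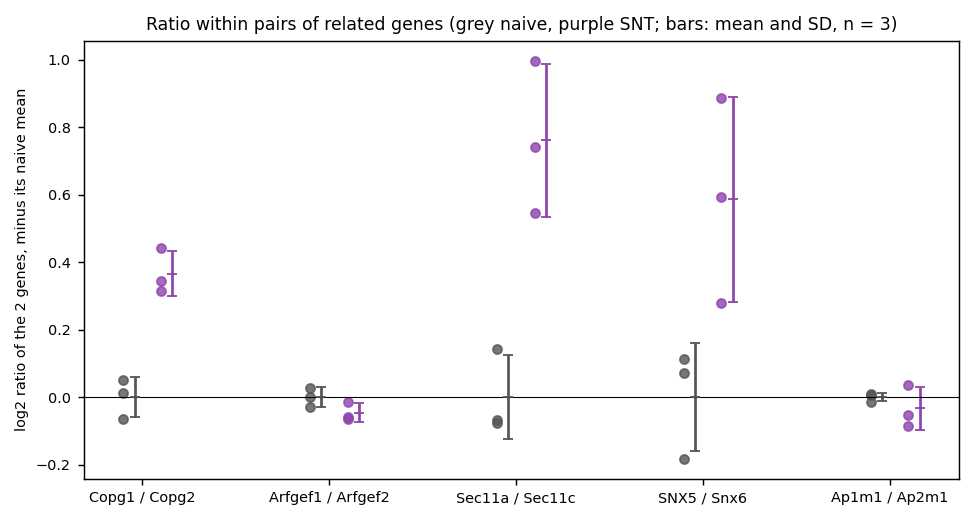
For 5 pairs of related genes, the log2 ratio of the pair in each library (50 M run) is plotted after subtraction of its naive mean, with the mean and SD of each group (n = 3). SNT libraries lie above all naive libraries for Copg1 over Copg2, Sec11a over Sec11c and SNX5 over Snx6, by 0.37, 0.76 and 0.59 on average, and the groups overlap for the other 2 pairs.

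The 3 COP9 signalosome genes, whose complex removes the ubiquitin-like protein NEDD8 from cullin ubiquitin ligases, were all lower. Of all tested genes 29.4% were lower. Cops2 had 6387, 6209 and 6222 normalized counts in naive and 4256, 3822 and 3789 in SNT libraries (ratio 0.631, log2 -0.67 ± 0.08, limma adjusted p = 0.00252). Cops3 and Cops7a had ratios of 0.723 and 0.789, with groups that did not overlap. Without the 3 genes, 44 of 68 were called.

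SNT replicate 1 lay between the naive libraries and the other SNT libraries in 37 of the 47 called genes (78.7%), and in 77.8% of all called genes. When it was left out, 50 of the 71 genes were called (18 higher), with 3 calls lost and 6 gained. Leaving out any other single library lost more calls (7 to 12) and gained none. Without naive replicate 1 there were 35 calls, without naive replicate 2 or SNT replicate 3 there were 36, and 15 of the 47 called genes lost the call in at least 1 of the 6 fits that left out a library. On the recovered reads of the 50 M run, edgeR called 47 of the 71 genes (57.8% of all tested genes) and DESeq2 called 45 (54.6% of all tested genes). Over 16 alternatives in all, 31 of the 47 kept their call, and 10 of the 24 uncalled genes were called in none.

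The runs of lower depth came from the same libraries, so that they measure sequencing noise and not new animals. At 25 M reads 43 of the 71 genes were called (18 higher, 25 lower), against 55.9% of all tested genes at that depth (27.7% higher, 28.3% lower). At 17 M reads 42 were called (15 higher, 27 lower), against 52.3% of all tested genes (26.0% higher, 26.4% lower). The groups were apart for 49 genes at 25 M and 47 at 17 M, where 60.1% and 56.9% of all tested genes were apart. The shares called, 60.6% at 25 M and 59.2% at 17 M, lay above the background of each run, as did the shares apart. The share among genes with a symbol was not computed at these depths. At 50 M the 71 genes had a median mean of 1382 normalized counts, against 240 for all tested genes. There were 38 genes (53.5%) called in 1 direction in all 3 runs, where 42.8% of all tested genes were, and 63 genes had the same sign in all 3. Snap25 had ratios of 0.258, 0.262 and 0.260 at 50, 25 and 17 M, Rab15 2.12, 2.12 and 2.13, and Vps41 0.530, 0.534 and 0.539. Syt16, with few reads, had ratios of 0.565, 0.684 and 0.479, and it was not called at 25 M.

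**Figure D5:**
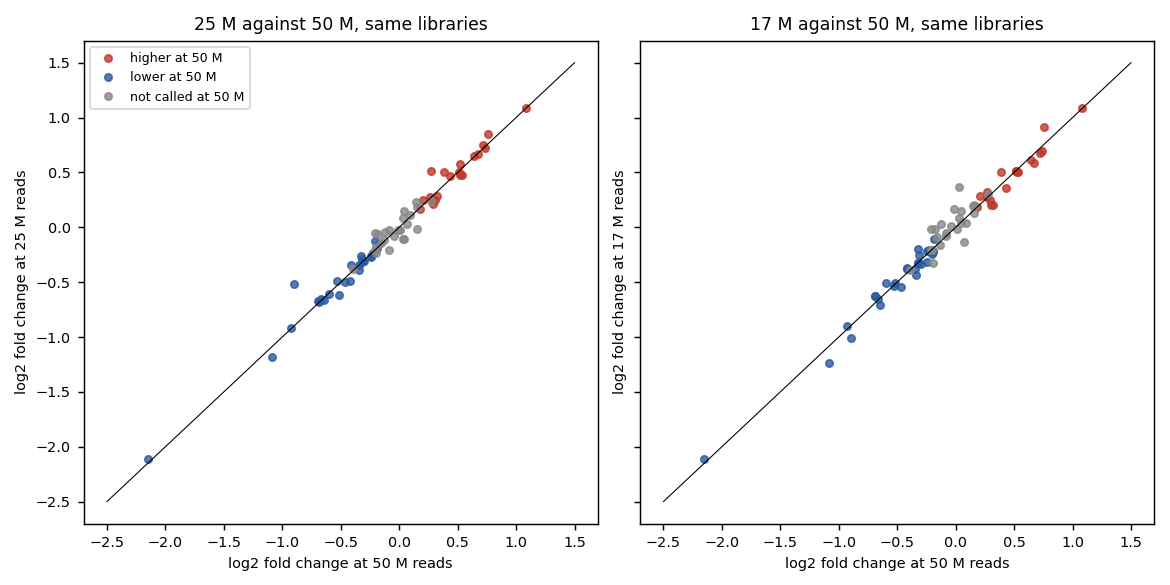
The log2 fold change of each of the 71 genes (SNT over naive) in the 25 M run (left) and the 17 M run (right) is plotted against that in the 50 M run of the same libraries, coloured by the call at 50 M, with the line of equality. Points lie near the line, with Snap25 at the lower left and Rab15 at the upper right, and 63 of 71 genes keep 1 sign in all 3 runs.

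Another 72 genes of membrane traffic with other names, from 8 lists by function, were read from the same fit. Of these, 17 were higher and 33 lower (69.4% called), a share between the 58.5% of all tested genes and the 71.4% of genes with a symbol. Their median log2 fold change was -0.16. With equal totals 24 were higher and 19 lower, since 14 lower calls ended and 7 genes were newly called higher. In addition, 18 of the 50 called genes lost the call in at least 1 of the fits that left out a library, none of them without SNT replicate 1. Microtubule motors, which haul vesicles along the axon, were lower in 8 of 14 cases and higher in 2 (71.4% called). The calls of Kif3a and Kif3c, whose groups overlapped, ended with equal totals (limma adjusted p = 0.364 and 0.244) and when certain single libraries were left out (limma adjusted p 0.113 to 0.240 and 0.160 to 0.188), which left 6 lower with equal totals. For Kif3a these libraries were all but SNT replicate 1, and for Kif3c naive replicates 1 and 2 and SNT replicates 2 and 3. Dync1i1, a dynein intermediate chain best known from neurons, had 7231, 8080 and 6773 normalized counts in naive and 3852, 1773 and 2110 in SNT libraries, a fall to 0.350 times (log2 -1.59 ± 0.27, limma adjusted p = 0.00547). Kif13a was the motor gene with the largest rise (ratio 1.49, limma adjusted p = 0.00633). The other higher call of this list, Hook3, was lost without naive replicate 1 or 3 or SNT replicate 2 or 3 (limma adjusted p 0.105 to 0.126). Of the 10 sensory neuron markers 7 were also lower, 1 (Nsg1, ratio 2.27) was higher and 2 (Prph and Stmn2) were not called. The part of these 10 markers in the motor result was not tested.

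Genes of the synaptic vesicle and active zone list were lower in 3 of 8 cases and higher in 2 (62.5% called, against 58.5% of all tested genes). The higher call of Sypl1 was lost without naive replicate 1 or 2 or SNT replicate 2 or 3 (limma adjusted p 0.150 to 0.165). Syngr1, a membrane protein of synaptic vesicles, had 1061, 1138 and 953 normalized counts in naive and 593, 298 and 367 in SNT libraries, or 0.399 times (log2 -1.38 ± 0.24, limma adjusted p = 0.00569). Unc13b, which primes vesicles for release, rose from 232, 206 and 194 to 296, 348 and 415, or 1.68 times (log2 0.73 ± 0.15, limma adjusted p = 0.00807). The groups of both genes were apart, and SNT replicate 1 was nearest to the naive libraries in both.

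In the clathrin and endocytosis list 5 of 13 genes were lower and 4 higher (69.2% called, against 58.5% of all tested genes). They ranged from Synj1, a lipid phosphatase that helps to uncoat vesicles (ratio 0.544, limma adjusted p = 0.0123), to Ehd4 (1.55, adjusted p = 0.0128 by limma). The lower calls of Eps15l1 and Pacsin2 ended with equal totals (limma adjusted p = 0.811 and 0.174), which left 3 lower, and that of Eps15l1 also without any naive library or SNT replicate 3 (limma adjusted p 0.146 to 0.257). Genes of ER shape and contact were lower in 6 of 7 cases (85.7%), where 29.4% of all tested genes and 36.2% of genes with a symbol were lower. The largest fall was that of atlastin Atl1, which fuses ER tubules (ratio 0.590, limma adjusted p = 0.0071). With equal totals 3 of 7 were lower, and RTN1, Rtn4 and Vapa lost the call. RTN1 also lost it without naive replicate 1 or 2 or SNT replicate 2 or 3 (limma adjusted p 0.118 to 0.152). Rtn4 lost it without any library but SNT replicate 1 (limma adjusted p 0.167 to 0.222), and Vapa without SNT replicate 3 (limma adjusted p = 0.109). In the list of Rab regulators and related genes with other names, 5 of 7 were higher and 2 lower (100% called). The largest rise was that of the Rab5 exchange factor Rin3 (ratio 1.75, limma adjusted p = 0.0211), and the largest fall that of Rabl6 (ratio 0.642, limma adjusted p = 0.0045). Rabggtb lost its lower call with equal totals. The higher call of Dennd5a was lost without any library but SNT replicate 1 (limma adjusted p 0.152 to 0.246). That of Sbf1 was lost without naive replicate 1 or 3 or SNT replicate 3 (limma adjusted p 0.117 to 0.158). Golgi genes were lower in 5 of 9 cases and higher in 1 (66.7% called), with Pacs2 at 0.743 times (limma adjusted p = 0.0181) and Bet1 at 1.36 times (limma adjusted p = 0.0687). With equal totals the lower calls of Golga1, Gopc, Uso1 and Tmf1 ended, which left Pacs2 as the 1 lower Golgi gene. That of Golga1 was also lost without naive replicate 3 (limma adjusted p = 0.102), and that of Gopc without any library but SNT replicate 1 (limma adjusted p 0.122 to 0.184). Uso1 lost it without naive replicate 1 or SNT replicate 3 (limma adjusted p 0.125 to 0.142), and Tmf1 without naive replicate 1 or 2 or SNT replicate 2 or 3 (limma adjusted p 0.141 to 0.201). The groups of Bet1 overlapped, and its call was lost in 6 of 16 alternatives, among them those without naive replicate 1 or 2 or SNT replicate 2 or 3 (limma adjusted p 0.137 to 0.200). Endosome and lysosome genes were lower in 3 of 9 and higher in 2 (55.6% called), with Lmbrd1 at 0.600 times (limma adjusted p = 0.00335) and Rufy1 at 1.76 times (limma adjusted p = 0.0164). The lower calls of Tsg101 and Lamp2 ended with equal totals, and that of Lamp2 also without any naive library or SNT replicate 3 (limma adjusted p 0.112 to 0.149). The higher call of Igf2r was lost without naive replicate 3 (limma adjusted p = 0.115). Of 5 subunits of the proton pump V-ATPase, 40% were called. Atp6v1c1 fell to 0.570 times (limma adjusted p = 0.00336) and Atp6v0c rose to 1.16 times (limma adjusted p = 0.04). The Atp6v0c call was lost with the replicate block and without naive replicate 1 or 3 or SNT replicate 3 (limma adjusted p 0.112 to 0.132).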

How the data were processed

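Poly(A) RNA of L5 DRG from 3 SNT and 3 naive pools of 4 rats was sequenced in 3 runs per library, which are technical replicates. Per the methods of the study, the authors aligned 34-base reads to Rn5 with Bowtie (up to 1 mismatch), discarded reads that mapped to several places, and counted exonic reads per Ensembl gene without regard to strand, leaving out shared exons. Genes with near-identical copies thus lost reads, and an antisense transcript adds to the gene it overlaps. The deposited signal values are normalized counts, made by the authors by division by the DESeq size factor of the library. The read counts were recovered from the smallest step of each column.

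SNT and naive libraries were compared in R 4.3.3 by limma 3.58.1 (variance prior with a trend, two-sided) on log2(normalized count + 1), for genes with reads in at least 3 of 6 libraries, with Benjamini-Hochberg adjustment over all tested genes and a threshold of 0.1. A fold change on this scale understates that of genes with few reads. A ratio is the SNT mean over the naive mean of the normalized counts. Its log2 can differ from the log2 fold change printed beside it, which is a difference of means of logs. The study used DESeq on counts, and edgeR 4.0.16 and DESeq2 1.42.0 on the recovered reads were alternatives, beside other pseudocounts (0.5, 5), filters, an FDR of 0.05, equal totals, no trend, a replicate block, the summed runs and each library left out. Ratios of related genes were compared by exact permutation tests, with 0.1 the smallest p that 3 against 3 libraries allow.

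The members and lists were chosen with earlier results of these data known. Named genes were all SNAREs and their regulators, the 8 largest called rises and falls, the 5 pairs of related genes, the 4 smallest changes among genes with a mean of at least 1000 (Rab7a, Snx16, Stx16, Tbc1d14), the largest called rise and fall of each other list, and any member within its role. Levels were not compared between genes, since transcript length was not used. Exon arrays and intronic reads were not analysed here, and gene positions in Rn5 were not used.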

Additional observations from a re-analysis of the deposited data

How the results depend on the processing

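The number of the 71 genes called stayed within 1.5 times of 47, 43 and 42 at 50, 25 and 17 M in every alternative run. At 50 M it was 38 at an FDR of 0.05, 45 without a filter, 50 with a mean of at least 10, 39 without a variance trend, 47 with edgeR (21 higher), 45 with DESeq2 (17 higher) and 50 with the runs summed. Leaving out 1 library gave 35 to 50 calls at 50 M, 31 to 49 at 25 M and 28 to 52 at 17 M, and 34 to 55 of the other 72 traffic genes. A replicate block gave 39 calls at 50 M (15 higher). The deviations of same-numbered libraries from their group means correlated at 0.0449, -0.304 and 0.145 over 14984 genes. The highest values were those of naive replicate 3 with SNT replicate 2 (0.323) and naive replicate 2 with SNT replicate 1 (0.32). Deviations within a group of 3 offset each other, so these values cannot decide whether the replicate numbers pair the libraries.

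Of 512 log2 fold changes of 32 named genes under alternatives, 479 kept sign and call, 12 gained a call, 15 lost it and 6 changed sign, all 6 in genes that were not called. Rab7a went from 0.010 to -0.023 without naive replicate 3, -0.0024 without SNT replicate 3 and -0.010 with the runs summed, Snx16 from 0.029 to -0.014 without SNT replicate 2, and Stx2 from -0.084 to 0.078 with equal totals and 0.025 without SNT replicate 2. Over the fits that left out 1 library, the log2 fold change of Rab7a ran from -0.023 to 0.050, that of Snx16 from -0.014 to 0.054 and that of Stx2 from -0.14 to 0.025. The causes were not tested. Differences between related genes kept their sign in all 8 alternatives run for each. Depth limits Syt16 and Snx1 most, and 3 pools per group limit every test.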
